A study of Mus musculus with 15 samples.

Results

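The 4 acid-sensing ion channel genes Asic1, Asic2, Asic3 and Asic4 were followed in RNA of large mouse sensory neurons, as 4 of the 19938 genes tested. Probe sets were matched to them by gene symbol, and each gene had 1 probe set of the 35556 on the array that names no other gene. The genes themselves were chosen with earlier results of these data known. The RNA came from 15 samples in 5 groups of 3, which the series design describes as biological replicates. All mice were C57BL/6 and carried green fluorescent protein (GFP) driven by the promoter of CGRP (calcitonin gene-related peptide), a neuropeptide of many pain-sensing neurons. Neurons wider than 26.9 µm were sorted from lumbar ganglia 2 to 5 of the experimental side by GFP and by a fluorescent wheat germ agglutinin tracer, which had been given 5 days before death into the gastrocnemius muscle or the saphenous nerve.

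In the 3 muscle groups the neurons were CGRP-negative and projected to muscle, after saline, acid or complete Freund's adjuvant (CFA, an oil emulsion of killed mycobacteria that causes inflammation) had been injected into muscle. In the 2 paw groups they were CGRP-positive and projected to skin, after saline or CFA had been injected into the paw. The saline groups were the study's controls. The time between injection and tissue collection, the age of the mice and the number of mice per sample were not given in the sources used here. Target tissue, CGRP status, tracer site and injection site all differ together between paw and muscle groups, so their parts in any difference between these groups cannot be told apart.

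Acid-sensing ion channels are sodium channels of the epithelial sodium channel and degenerin family. They assemble from several subunits and open when the fluid outside the cell turns acidic, as it does in inflamed tissue and in working muscle. Asic3 is known as the subunit of sensory neurons that responds to small falls in pH and is much studied in afferents of muscle and heart. Asic1 forms strongly proton-gated channels in central and peripheral neurons, Asic2 mainly shapes the channels it joins, and Asic4 gives no proton-gated current of its own.

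The genes lie apart on the mouse genome, at these RefSeq positions on GRCm38.p6. Asic1 spans chr15:99670197-99701130, Asic2 chr11:80880163-81968396, Asic3 chr5:24413451-24417840 and Asic4 chr1:75450510-75474340. The probe sets were 10426782 for Asic1, 10389047 for Asic2, 10520173 for Asic3 and 10347650 for Asic4. In the probe table, the probe sets of Asic1 and Asic2 each list 2 RefSeq transcripts, whose levels are therefore not told apart, and those of Asic3 and Asic4 list 1 each. The genome build behind the array values was not given in the sources used here.

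Asic3 was the member whose level differed most between groups, and the 250 bases before its RefSeq start are therefore shown, on the plus strand at chr5:24413201-24413450 of GRCm38.p6. Capitals mark TGTGGT, the core letters bound by Runx factors, which regulate the identity of sensory neurons.

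Asic3: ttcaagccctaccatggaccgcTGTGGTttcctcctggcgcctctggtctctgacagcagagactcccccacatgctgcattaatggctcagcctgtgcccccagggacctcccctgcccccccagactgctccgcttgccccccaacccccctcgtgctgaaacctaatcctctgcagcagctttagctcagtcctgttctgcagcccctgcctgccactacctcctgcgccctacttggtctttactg

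The motif lies 228 bases before the start. The motifs searched, on both strands and not overlapping each other, were this one, the CACCC box, the TATA box (TATAAA) and the GC box (CCGCCC), and TGTGGT was the 1 found in the window. Over the 32851 windows of this length in the RefSeq table, 14% held TGTGGT, while 52% held the CACCC box, 12.4% the TATA box and 32.7% the GC box. The Asic3 window had a GC content of 61.6%, against a median of 52.4% over all windows with quartiles of 45.2% and 61.2%. A match of letters describes the sequence only, and no binding was measured.

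The deposited values were log2 levels, with array medians of 2.65 to 2.92. A level of 2.45, the 95th percentile of the mean level of 1190 olfactory and vomeronasal receptor genes, was taken as the limit below which a gene was called dim, and all 4 members lay above it on every array. Sensory neuron markers were high in all groups, but their mean over 8 of 8 measured genes was 7.57 to 8.61 on paw arrays and 6.65 to 7.73 on muscle arrays. The gene behind the reporter was not analysed here. Calcb, the other CGRP gene, was at 6.28 to 7.76 in paw samples and at 5.58 to 6.25 in muscle samples, so it was far above the dim limit in the CGRP-negative sort as well. In bulk RNA a lower level through fewer cells of a type and through less RNA per cell cannot be told apart.

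Saline paw replicate 1 stood apart from the other paw arrays. Its values had an SD over genes of 1.42, within the muscle range of 1.28 to 1.55 and below the 1.66 to 1.80 of the other paw arrays. On the first principal component it lay at -22.3, among the muscle arrays (-50.5 to -5.67) and away from the other paw arrays (32.5 to 58.1). Its neuron marker mean of 7.57 was the lowest of the paw arrays. The members' saline paw and pooled differences are therefore also given without it. Since the tests pool the spread over all 5 groups, this array also enters the SE of the muscle comparisons.

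Asic3 was clearly higher in skin-projecting, CGRP-positive neurons than in muscle-projecting, CGRP-negative neurons, both after saline (5.49-fold) and after CFA (9.96-fold). In saline paw its log2 levels were 6.56, 7.80 and 8.23 in replicates 1 to 3, and in CFA paw 7.86, 7.54 and 7.54. In saline muscle they were 5.47, 4.81 and 4.95, in CFA muscle 4.34, 4.12 and 4.53, and in acid muscle 4.65, 4.98 and 5.62. Every one of the 6 paw arrays (6.56 to 8.23) lay above every one of the 9 muscle arrays (4.12 to 5.62), an arrangement that 2.44% of all genes tested showed. The lowest paw value was that of saline paw replicate 1.

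The group means of Asic3 ran from 7.65 ± 0.18 (SD, n = 3) in CFA paw and 7.53 ± 0.87 in saline paw down to 5.08 ± 0.49 in acid muscle, 5.08 ± 0.35 in saline muscle and 4.33 ± 0.21 in CFA muscle. The paw groups overlapped each other, and so did acid and saline muscle, whereas the step from the paw groups to the muscle groups was wider than the spread of any group. Saline paw and acid muscle, the neighbours across that step, were not compared by a test. The plot of levels by group shows all 15 arrays for each gene.

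**Figure D1:**
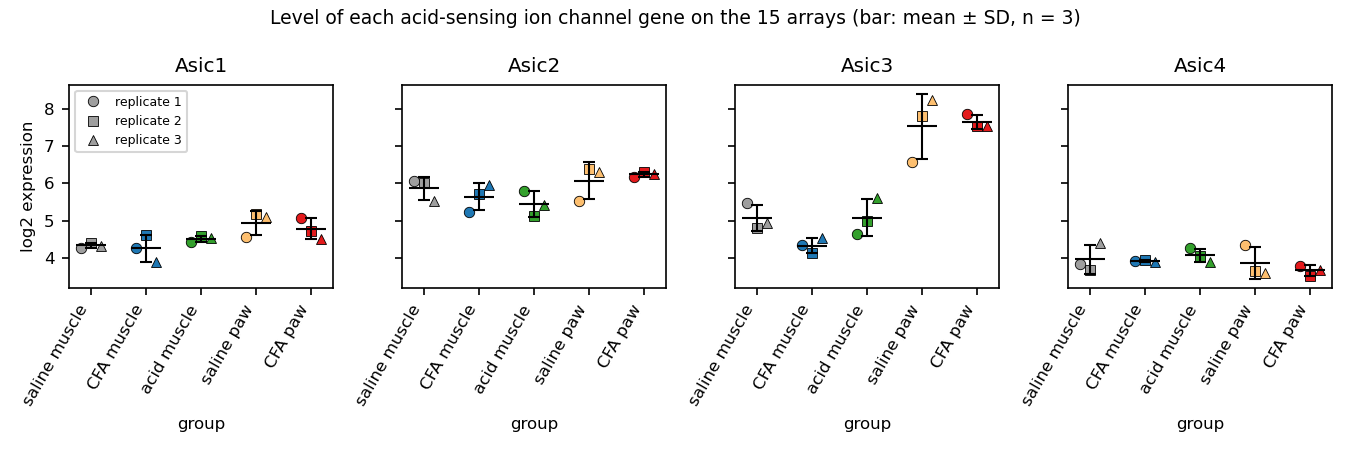
Log2 level of each acid-sensing ion channel gene (vertical axis) in the 5 groups (horizontal axis). Points are single arrays and bars the group means with their SD (n = 3), and for Asic3 the 6 paw arrays lie above the 9 muscle arrays.

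Saline paw exceeded saline muscle for Asic3 by 2.46 on the log2 scale (SE 0.347, 95% interval 1.71 to 3.20). The limma test, with Benjamini-Hochberg adjustment over all 19938 genes, gave an adjusted p of 0.0042. Asic3 was the 1 member of 4 that passed in this comparison, in which 2.04% of all genes passed and 1.87% passed as higher in paw. Leaving out saline paw replicate 1 raised the Asic3 difference to 2.94 (limma adjusted p 1.17e-05), and leaving out saline paw replicate 3 gave 2.10, still past the threshold. With the spread estimated only from the 6 arrays compared, the same difference had a limma adjusted p of 0.186.

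CFA paw exceeded CFA muscle for Asic3 by 3.32 (SE 0.347, interval 2.57 to 4.06; limma adjusted p 0.000196), a fold of 9.96 with an interval of 5.95 to 16.7. Again Asic3 was the 1 member past the threshold, against 6.41% of all genes (5.75% higher in paw and 0.667% lower), and the lowest CFA paw array stood 3.00 above the highest CFA muscle array. Leaving out any 1 array kept the difference between 3.21 and 3.42. Over saline and CFA together, paw exceeded muscle by 2.89 (SE 0.245; limma adjusted p 1.11e-05), or 7.39-fold with an interval of 5.14 to 10.6, and without saline paw replicate 1 by 3.13 (adjusted p 4.27e-08). This pooled comparison uses the arrays of both single comparisons and is no independent support for them.

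Neuron markers were also higher on the paw arrays, so the Asic3 level was set against their mean on each array. The difference, Asic3 minus the marker mean, was -1.01, -0.81 and -0.34 in saline paw and -0.66, -0.93 and -0.90 in CFA paw. It was -1.87, -2.30 and -2.01 in saline muscle, -2.39, -3.01 and -2.57 in CFA muscle, and -2.36, -1.67 and -2.11 in acid muscle. All 6 paw values lay above all 9 muscle values on this scale, saline paw replicate 1 included. The share of all genes so arranged on this scale was not worked out, so how unusual the arrangement is remains unknown. With the marker mean as a covariate, an alternative added after seeing the data, the pooled Asic3 difference was 1.54 (limma adjusted p 0.0343), while the saline difference of 1.31 (adjusted p 0.0897) and the CFA difference of 1.78 (adjusted p 0.0619) did not pass.

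**Figure D2:**
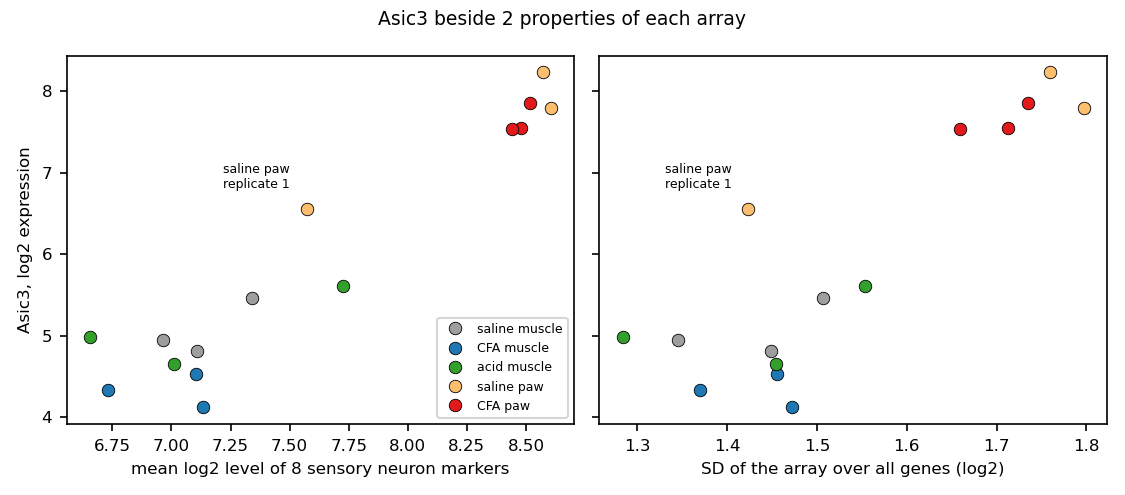
Log2 level of Asic3 (vertical axis) against the mean log2 level of the 8 sensory neuron markers (left) and against the SD of the array over all genes (right), 1 point per array, coloured by group. Saline paw replicate 1 has the lowest marker mean of the paw arrays (7.57), and its Asic3 level of 6.56 is above every muscle array.

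Asic1 was modestly higher in paw neurons when saline and CFA were pooled. Its levels were 4.57, 5.17 and 5.08 in saline paw and 5.08, 4.73 and 4.52 in CFA paw, against 4.28, 4.41 and 4.32 in saline muscle, 4.26, 4.62 and 3.90 in CFA muscle, and 4.42, 4.58 and 4.53 in acid muscle. All saline paw arrays were above all saline muscle arrays, as in 8.11% of all genes, by a gap of 0.16, but CFA paw and CFA muscle overlapped. The group means ran from 4.94 ± 0.32 in saline paw and 4.78 ± 0.28 in CFA paw through 4.51 ± 0.080 in acid muscle and 4.34 ± 0.068 in saline muscle to 4.26 ± 0.36 in CFA muscle. Of these neighbours CFA paw and acid muscle were not compared by a test, and no difference between the others passed.

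Over saline and CFA together, Asic1 was higher in paw by 0.56 (SE 0.141, interval 0.26 to 0.86; limma adjusted p 0.0159), a fold of 1.48. It and Asic3 were the 2 members of 4 that passed this pooled comparison as higher in paw, where 11.6% of all genes did and 3.12% passed as lower. Neither single comparison passed for Asic1, with 0.60 after saline (limma adjusted p 0.138) and 0.52 after CFA (0.149), although without saline paw replicate 1 the saline difference was 0.79 (adjusted p 0.0127) and the pooled one 0.65. Under quantile normalization the pooled Asic1 difference was 0.30 (limma adjusted p 0.161), under cyclic loess 0.34 (0.0844), with the SD of each array added as covariate 0.31 (0.431) and with the neuron markers added 0.22 (0.741). The Asic1 call thus depended on how the arrays were scaled, unlike the pooled Asic3 call, which passed under each of these settings.

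For Asic2 no paw and muscle difference passed the test, and its direction depended on the scaling. Its levels were 5.51, 6.39 and 6.31 in saline paw, 6.18, 6.31 and 6.25 in CFA paw, 6.07, 6.02 and 5.52 in saline muscle, 5.24, 5.71 and 5.95 in CFA muscle, and 5.80, 5.13 and 5.41 in acid muscle. CFA paw lay wholly above CFA muscle, as in 18.9% of all genes, whereas saline paw and saline muscle overlapped, with saline paw replicate 1 the lowest paw array. The group means were 6.25 ± 0.066 in CFA paw, 6.07 ± 0.49 in saline paw, 5.87 ± 0.30 in saline muscle, 5.63 ± 0.36 in CFA muscle and 5.44 ± 0.34 in acid muscle.

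The Asic2 difference over saline and CFA was 0.41 (SE 0.178, interval 0.03 to 0.79; limma adjusted p 0.139). After CFA alone it was 0.61 (adjusted p 0.179) and after saline alone 0.20 (adjusted p 0.717). The saline difference became 0.48 (limma adjusted p 0.146) when saline paw replicate 1 was left out, 0.084 when replicate 3 of that group was left out, and 0.028 on leaving out saline muscle replicate 3. Without saline paw replicate 1 the pooled difference was 0.55 and passed (limma adjusted p 0.0144), but it was -0.13 under quantile normalization, -0.10 under cyclic loess and -0.16 with array SD in the model.

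Asic4, the member without a proton-gated current of its own, had its lowest group mean in CFA paw and passed in no comparison. It was at 4.34, 3.66 and 3.59 in saline paw, 3.79, 3.51 and 3.69 in CFA paw, 3.84, 3.67 and 4.40 in saline muscle, 3.92, 3.94 and 3.89 in CFA muscle, and 4.26, 4.06 and 3.88 in acid muscle. CFA paw lay wholly below CFA muscle, as in 17.1% of all genes, and also wholly below acid muscle, a pair that was not tested. The other pairs of groups overlapped. The pooled paw minus muscle difference was -0.18 (interval -0.50 to 0.14; limma adjusted p 0.437), and it was 0.23 with array SD in the model. Leaving out saline paw replicate 1 gave -0.30 (limma adjusted p 0.0837), while leaving out saline muscle replicate 3 gave -0.070. After saline alone the Asic4 difference was -0.10 (limma adjusted p 0.839), and -0.34 (0.21) without saline paw replicate 1. The group means lay in a narrow band, from 4.07 ± 0.19 in acid muscle, 3.97 ± 0.38 in saline muscle and 3.92 ± 0.022 in CFA muscle to 3.86 ± 0.42 in saline paw and 3.67 ± 0.14 in CFA paw.

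**Figure D3:**
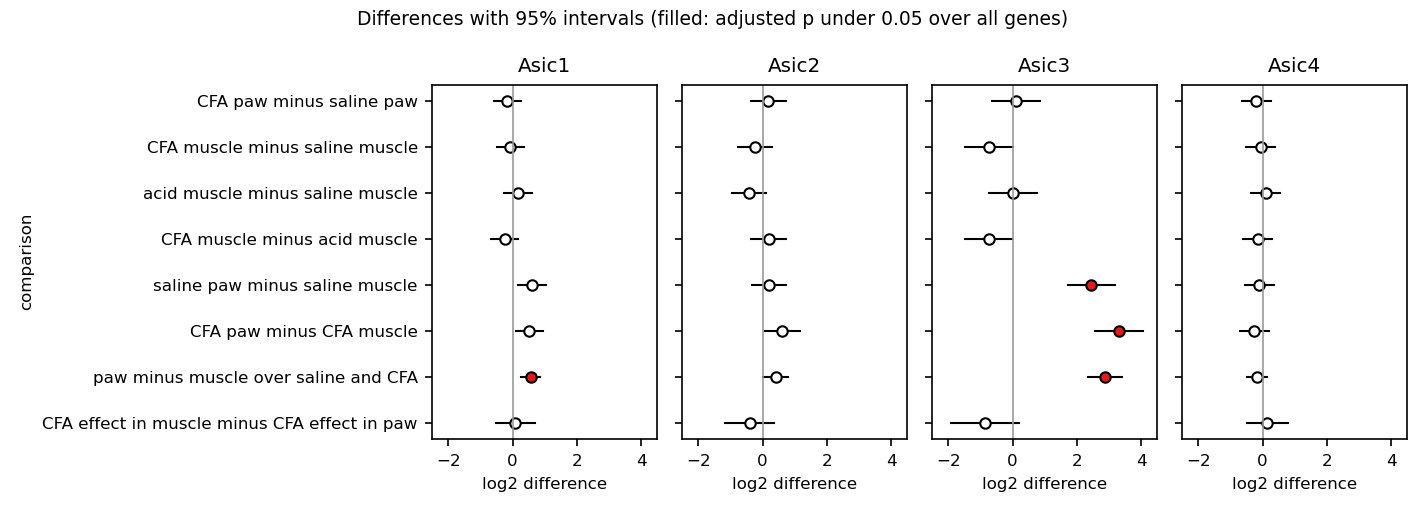
Log2 difference of each acid-sensing ion channel gene (horizontal axis) in the 8 comparisons tested (vertical axis), with 95% intervals from the limma fit to all 15 arrays and filled points where the adjusted p is under 0.05. The paw minus muscle differences of Asic3 (2.46 after saline and 3.32 after CFA) lie far to the right, and most other intervals include 0.

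The treatments of muscle were compared with saline muscle to ask whether inflammation or acid was accompanied by a change in these channels. Asic3 was lower in CFA muscle than in either of the other muscle groups, but the differences did not pass the adjustment over all genes. All 3 CFA muscle arrays (4.12 to 4.53) were below all 3 saline muscle arrays (4.81 to 5.47), as in 4.1% of all genes (3.63% lay wholly above). The difference was -0.74 (SE 0.347, interval -1.49 to -0.0006; limma p 0.0498, adjusted p 1), and leaving out single arrays kept it between -0.88 and -0.55. No member, and 0 of all genes, passed in this comparison by limma, while 518 genes (2.6%) had an unadjusted p under 0.05. The SE pools the spread of all 5 groups. For Asic3 the SD was 0.87 in saline paw, 0.35 in saline muscle and 0.21 in CFA muscle. Without saline paw replicate 1, 797 genes had an unadjusted limma p under 0.05 and 0 passed. The Asic3 difference passed in 0 of 15 fits that left out 1 array and under 0 of 11 other alternatives.

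Against acid muscle, CFA muscle differed for Asic3 by a similar amount, -0.75 (SE 0.347; limma p 0.048, adjusted p 1), again without overlap, as in 5.23% of all genes. In that comparison too 0 genes passed by limma, with 626 (3.14%) at an unadjusted p under 0.05. Without saline paw replicate 1 again 0 passed, with 1069 at an unadjusted limma p under 0.05. These comparisons share the CFA muscle arrays and are not independent of each other. Relative to the neuron marker mean, CFA muscle (-3.01 to -2.39) also lay below saline muscle (-2.30 to -1.87). The share of all genes doing so on that scale was not worked out, so how unusual this is remains unknown. Fibroblast markers, 4 genes, had a mean of 4.11 to 4.25 in CFA muscle and 3.82 to 3.99 in saline muscle. Their median difference was 0.23, beside 0.38 over 3 Schwann cell markers and -0.29 over 4 peptidergic neuron markers. On each of these lists 0 genes passed by limma. The part of any of them in the Asic3 difference was not tested.

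The other members in CFA muscle overlapped saline muscle. The differences were -0.08 for Asic1 (interval -0.50 to 0.35), -0.24 for Asic2 (-0.78 to 0.30) and -0.05 for Asic4 (-0.50 to 0.40). After acid, Asic3 differed from saline muscle by 0.01 (interval -0.74 to 0.75), an interval that includes changes of up to about that size in either direction. This interval rests on the spread pooled over all 5 groups and is not adjusted over all genes. In CFA muscle an Asic3 difference of -0.74 did not pass the adjusted test. Asic2 was -0.42 after acid (interval -0.96 to 0.11; limma p 0.114, adjusted p 1), Asic4 was 0.10, and Asic1 was 0.17 with acid arrays just above all saline muscle arrays, as in 3.98% of all genes. For acid muscle limma called 0 genes, with 568 (2.85%) at an unadjusted p under 0.05. Leaving out saline paw replicate 1 gave 0 and 995.

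In paw, CFA gave no difference in any member that passed the test. Compared with saline paw, the differences were -0.16 for Asic1 (interval -0.59 to 0.26), 0.17 for Asic2 (-0.37 to 0.71), 0.12 for Asic3 (-0.63 to 0.86) and -0.20 for Asic4 (-0.65 to 0.25), each with a limma adjusted p of 1, and the groups overlapped for all 4 genes, where 1.73% of all genes lay wholly above and 2.99% wholly below. Limma called 0 genes here, with 241 (1.21%) at an unadjusted p under 0.05. Without saline paw replicate 1 the Asic3 difference was -0.37, so its sign depended on that array, and it also changed under quantile normalization. The CFA effect on Asic3 in muscle minus that in paw was -0.86 (SE 0.491, interval -1.91 to 0.19; limma p 0.101, adjusted p 1) and is not shown to differ between the tissues. Leaving out saline paw replicate 1 gave -0.37, and leaving out replicate 3 of that group gave -1.21 (limma adjusted p 1 for each). For this difference of effects limma called 0 genes, with 325 (1.63%) at an unadjusted p under 0.05.

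**Figure D4:**
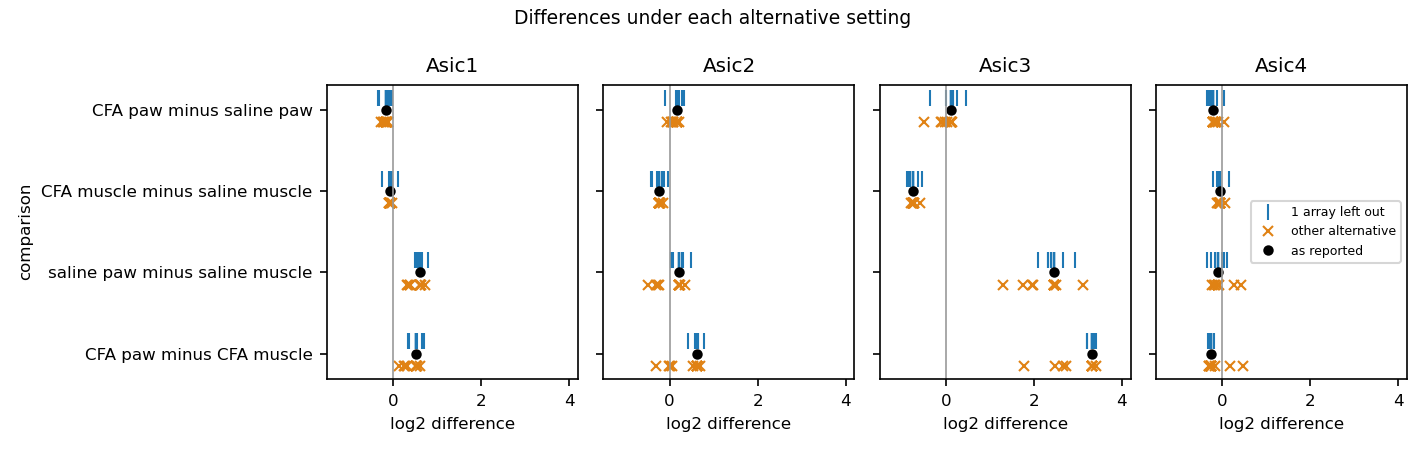
Log2 differences (horizontal axis) of each member in 4 comparisons (vertical axis), as reported (black), with 1 array left out (blue) and under the other alternatives (orange). For Asic3 both paw minus muscle differences stay above 0 in all of them, the lowest being 1.31 after saline with the neuron marker covariate, while Asic2 and Asic4 have values on both sides of 0.

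Other proteins that sense protons were also compared between paw and muscle over saline and CFA. Of 14 measured proton-sensing receptors and channels outside the Asic genes, 2 were higher in paw, 0 were lower and 12 did not pass, beside 11.6% higher and 3.12% lower over all genes. Trpv1, the capsaicin and acid receptor of heat-sensing neurons, was higher by 1.91 (SE 0.242; limma adjusted p 0.000188). P2rx5, a subunit of ATP-gated channels, was higher by 0.42 (SE 0.0995; limma adjusted p 0.011). The median difference over the list was -0.01, beside -0.04 over all genes, and Kcnk9, Gpr4, Gpr65 and Gpr132 were below the dim limit. Trpv1 is also on the list of peptidergic neuron markers, whose mean over the 4 measured of 6 was 6.20 to 7.65 in paw and 4.62 to 5.69 in muscle.

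Among 16 proteins known to bind or regulate these channels, 3 were higher in paw, 2 were lower and 11 did not pass, beside the same 11.6% and 3.12% over all genes. Dlg4, the scaffold PSD-95, was higher by 1.63 (limma adjusted p 6.52e-05), and Ppp3ca, a catalytic subunit of the phosphatase calcineurin, by 1.87 (adjusted p 0.00054). S100a10, an annexin partner that helps bring channels to the membrane, was higher by 0.95 (adjusted p 0.00353), but was -0.15 under quantile normalization and -0.10 under cyclic loess. Stom, the membrane protein stomatin, was lower, at -0.61 (adjusted p 0.00641). Patj, a PDZ scaffold, was lower, at -0.30 (limma adjusted p 0.0427), and passed in 5 of 15 fits that left out 1 array and under none of the 3 scalings. The median over the 16 was 0.08.

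Related channels, modulating peptides and regulators of pH were read in the same pooled comparison, in which 14.7% of all genes passed. Of 4 other epithelial sodium channel and degenerin genes, 0 passed in either direction by limma, the nearest being Scnn1g at -0.38 (adjusted p 0.0541), whose level was below the dim limit. Likewise 0 of 4 genes of peptides that modulate these currents passed, with Pdyn, the dynorphin precursor, at -0.32 (adjusted p 0.118). Without saline paw replicate 1 Scnn1g (-0.38, limma adjusted p 0.0363) and Pdyn (-0.37, 0.0444) passed. Of 11 measured genes of proton, bicarbonate and lactate handling, 0 were higher and 1 was lower, Car4, a membrane carbonic anhydrase, at -0.57 (limma adjusted p 0.0206). The genes that passed as pooled also passed without saline paw replicate 1, with Trpv1 at 2.16, Dlg4 at 1.78, Ppp3ca at 2.09 and S100a10 at 1.10. With array SD in the model, P2rx5, S100a10, Stom, Patj and Car4 no longer passed (limma adjusted p from 0.0509 to 0.791). With the neuron markers as covariate, limma called 256 of all 19938 genes in this pooled comparison, against 2926 without it. The genes named from these lists were not among these 256, with Trpv1 at 1.19 (limma adjusted p 0.202), Dlg4 at 0.67 (0.181) and Ppp3ca at 0.16 (0.809).

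After saline alone, Trpv1 was higher in paw by 1.42 (limma adjusted p 0.0479), Dlg4 by 1.42 (0.0114) and Ppp3ca by 1.77 (0.0323). When 1 array was left out, Trpv1 passed after saline in 2 of 15 fits, Dlg4 in 12 and Ppp3ca in 8. With the spread taken only from the arrays compared none of the 3 passed, and Trpv1 had a limma adjusted p of 0.329, Dlg4 of 0.186 and Ppp3ca of 0.288. After CFA the same genes were higher by 2.40 (Trpv1, adjusted p 0.0012), 1.84 (Dlg4) and 1.97 (Ppp3ca). S100a10 was also higher after CFA, by 1.15 (limma adjusted p 0.017), in 12 of 15 fits that left out 1 array, and was -0.074 under quantile normalization and -0.061 under cyclic loess. Stom was lower after CFA, at -0.89 (limma adjusted p 0.0105), and missed the threshold without CFA muscle replicate 1 (-0.76, adjusted p 0.0599). With treatment, 0 genes of these lists passed in limma, the smallest p being those of Stom in CFA muscle (0.56, p 0.0084), Stoml2, a stomatin-like protein of mitochondria, in acid muscle (-0.56, p 0.0469), and Patj in CFA paw (-0.27, p 0.0563), each with an adjusted p of 1.

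**Figure D5:**
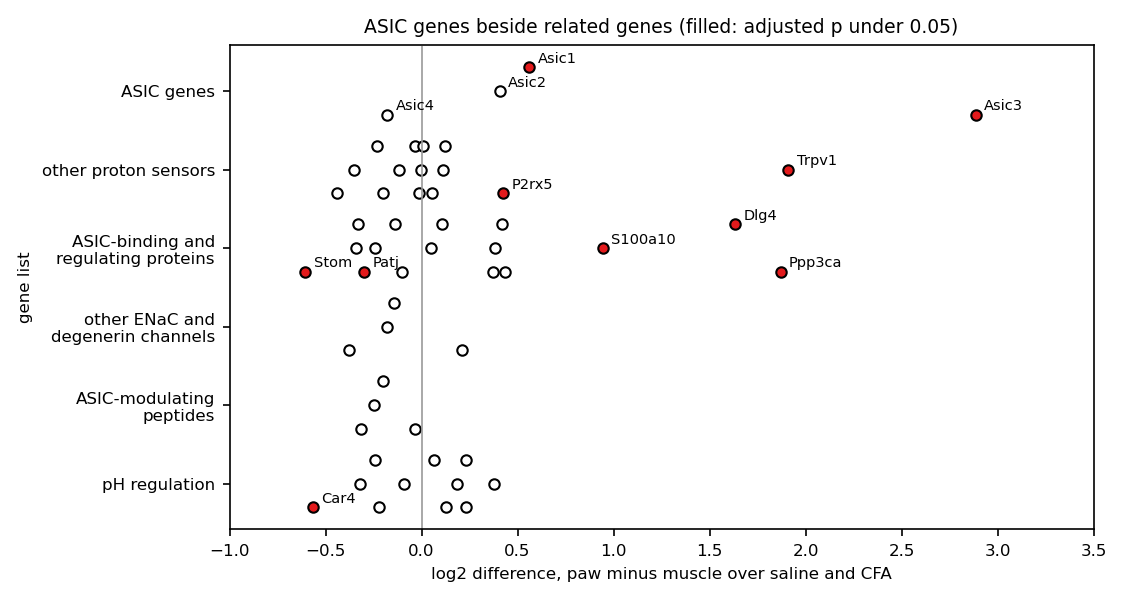
Log2 paw minus muscle difference over saline and CFA (horizontal axis) for the members and for the genes of 5 lists of related proteins (vertical axis), 1 point per gene, filled where the limma adjusted p is under 0.05. Asic3 (2.89), Trpv1 (1.91), Ppp3ca (1.87) and Dlg4 (1.63) lie farthest to the right.

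Genes that followed Asic3 across the arrays were sought among the 13408 other genes above the dim limit. The 5 with the highest Pearson r over the 15 arrays were Cpne6 (r 0.989), Ablim1 (0.986), Hspb1 (0.984), Ccdc92 (0.984) and Cntn2 (0.982). Within groups, from deviations from the group means, their r with Asic3 was 0.887, 0.895, 0.907, 0.868 and 0.907, and after quantile normalization of the arrays it was 0.979, 0.969, 0.941, 0.950 and 0.879. For Asic1 the highest was Atg12 (0.944), for Asic2 Cep170 (0.963) and for Asic4 6430550D23Rik (0.942). After quantile normalization the r of these genes was lower, at 0.655, 0.7625 and 0.8235. These values describe 15 arrays that share groups and scaling and include saline paw replicate 1, and carry no test. Without that array the r of the 5 genes with Asic3 was 0.989, 0.986, 0.987, 0.983 and 0.991. It was then 0.9445 for Atg12, 0.962 for Cep170 and 0.928 for 6430550D23Rik.

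Among the members, Asic3 ran most closely with Asic1 (r 0.779 over the 15 arrays, 0.379 within groups) and with Asic2 (0.682, and 0.457 within groups). Asic4 ran the opposite way to Asic3 (-0.525, and -0.663 within groups), to Asic2 (-0.691, and -0.612) and to Asic1 (-0.411, and -0.360). Saline paw replicate 1 had the lowest Asic3 (6.56) and the highest Asic4 (4.34) of the paw arrays. The r between members were not computed without it and carry no test.

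Markers of other cells that the sort could hold, and of large myelinated neurons, were also read on each array. Endothelial markers (4 genes) had a mean of 2.58 to 3.28 in paw and 3.03 to 4.23 in muscle, macrophage markers 2.08 to 2.49 and 2.26 to 2.60, with Aif1 and Adgre1 below the dim limit, and satellite glia markers 6.08 to 7.06 and 6.06 to 6.90. Schwann cell markers, 3 of 5 measured, were at 5.37 to 5.74 in paw and 5.17 to 6.87 in muscle, and large myelinated neuron markers, 5 of 6 measured, at 8.16 to 9.06 and 7.15 to 8.54. Fibroblast markers were at 3.72 to 4.25 in paw and 3.80 to 4.39 in muscle, skeletal muscle markers at 3.31 to 3.97 and 3.56 to 3.97, and neutrophil markers at 1.87 to 2.11 and 1.99 to 2.36, with 1 of their 4 genes above the dim limit. Each of these ranges overlaps between paw and muscle, the endothelial one through saline paw replicate 1 (3.28), since the other 5 paw arrays were at 2.58 to 2.84. In the pooled limma test 3 of 5 large myelinated neuron markers (Nefh, Nefl and Ntrk3) were higher in paw and 1 of 3 Schwann cell markers (Mag) was lower, genes named after their values were seen. All 8 of 8 sensory neuron markers and 4 of 4 peptidergic markers were higher. None of the satellite glia, macrophage, endothelial, fibroblast, neutrophil or skeletal muscle markers passed. The part of these other cells in the paw and muscle differences was not tested.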

How the data were processed

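RNA of 15 samples was measured on Affymetrix whole-transcript arrays after amplification of 50 ng. The deposited values are log2 levels per probe set, normalized by the authors with RMA and Partek (no version) per the submitters' processing notes, and the log base was taken from the range of the values. They were used as deposited. Of 23410 probe sets named in the probe table, 21789 carry 1 symbol, which gave 19938 genes, with the probe set of the highest mean used where a gene has several.

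In R 4.3.3, limma 3.58.1 fitted 5 group means to all 15 arrays (10 residual degrees of freedom, two-sided tests, empirical Bayes), and p was adjusted by Benjamini-Hochberg over all genes, with a threshold of 0.05. Overlap of groups was read from the arrays. P-values rest on the spread around the group means, pooled over all 5 groups of 3 biological replicates, as labelled. The members and lists were chosen with earlier results of these data known. Named beside the members are list genes past the threshold or, where none pass, those with the smallest p, and the 5 genes most like each member. The scripts were tested on simulated data. Alternatives were 3 scalings, 2 covariates (1, the neuron markers, chosen after seeing the data), only the arrays compared, array weights, a trend and robust prior, the mean of probe sets, the dim filter, a replicate block and each array left out. Replicate numbers were checked as pairs (closing section) and not used as a block. Missing list genes were not analysed here.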

Additional observations from a re-analysis of the deposited data

Results flagged for a closer look

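As reported, the CFA difference of Asic3 was above 0 in the paw and below 0 in the muscle, but its sign in the paw was not stable. In paw it was 0.12 and in muscle -0.74 on the log2 scale, with every CFA paw array above the saline paw mean and every CFA muscle array below the saline muscle mean. A limma test of the difference itself gave -0.86 (SE 0.491, p 0.101, adjusted p 1), which does not pass. Leaving out saline paw replicate 1 gave -0.37 for this difference, and leaving out saline paw replicate 3 gave -1.21. The CFA paw arrays at 7.54 lay only just above the saline paw mean of 7.53, and without saline paw replicate 1 the paw difference was -0.37. Over the 11 other alternatives it ran from -0.50 to 0.15. It was below 0 under quantile normalization, array weights, the array SD covariate and the neuron covariate.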

How the results depend on the processing

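The cause of the changes below was not tested. Of 352 values of the members under the other alternatives, 314 kept their direction and side of the threshold. Array weights were 0.148, 0.959 and 7.18 for saline paw replicates 1 to 3, so under them that group rested largely on replicate 3. For CFA paw minus saline paw, array weights gave -0.057 for Asic2, -0.50 for Asic3 and 0.042 for Asic4. They gave 0.041 for Car7 there, with 125 genes called. They gave 0.075 for Asic4 in CFA muscle and -0.093 for Asic3 in acid muscle, and passed Asic1 (0.73 after saline, 0.55 after CFA) and Asic2 (0.54 after CFA, 0.44 pooled). Quantile normalization gave -0.092 for Asic3 in CFA paw, -0.27 for Asic2 after saline, -0.13 pooled, 0.30 for Asic1 pooled, and -0.15 pooled and -0.074 after CFA for S100a10. Cyclic loess gave -0.25 and -0.10 for Asic2, 0.34 for Asic1 pooled, and -0.10 and -0.061 for S100a10. The array SD covariate gave -0.014 for Asic3 in CFA paw, -0.32, -0.0063 and -0.16 for Asic2 (saline, CFA, pooled), 0.27, 0.19 and 0.23 for Asic4, and 0.31 for Asic1 pooled. Centring gave -0.038 for Asic3 in acid muscle. The neuron covariate gave -0.12 for Asic3 in CFA paw, 1.31 and 1.78 for Asic3 after saline and CFA, -0.48, -0.30 and -0.39 for Asic2, 0.43, 0.47 and 0.45 for Asic4, -0.032 for the Asic4 difference of CFA effects, 0.22 for Asic1 pooled, -0.045 for S100a10, 0.22 for Car4, 0.091 for Scnn1g and 0.094 for Pdyn. Only the arrays compared gave 2.46 for Asic3 (no longer past) and 0.61 for Asic2 after CFA (now past).

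Genes called in saline paw minus saline muscle, 407 as reported, were 199 (centring), 0 by limma (only the arrays compared; 2261 at an unadjusted p under 0.05), 7379 (array weights) and 120 (neuron covariate). For CFA paw minus CFA muscle, 1279 as reported, they were 695 (quantile), 444 (array SD), 3209 (only the arrays compared), 4054 (array weights) and 78 (neuron covariate). Pooled, 2926 as reported, they were 1693, 866, 9139 and 256 for quantile, array SD, array weights and neuron covariate. Under array weights, saline paw in the saline and the pooled comparison rested largely on its replicate 3. The split of higher and lower genes was 373 and 34, 1146 and 133, and 2304 and 622 as reported, 213 and 132, 477 and 218, and 1001 and 692 under quantile, 265 and 161, 700 and 292, and 1363 and 890 under cyclic loess, 164 and 206, 232 and 212, and 431 and 435 with array SD, and 28 and 92, 8 and 70, and 40 and 216 with the neuron covariate.

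Leaving out 1 array gave 51 (saline paw replicate 3), 58 (saline paw 2), 110, 111 and 217 (saline muscle 2, 3 and 1), 238, 249 and 269 (CFA paw 2, 1 and 3), 259 (CFA muscle 2) and 3824 (saline paw 1) genes after saline. It gave 527 to 2588 after CFA, 1782 to 6499 pooled (highest without saline paw replicate 1 in both), 0 to 8 in CFA muscle and 0 to 6 against acid muscle (highest without CFA muscle replicate 1), and 0 to 1 for the difference of CFA effects. Member ranges that crossed 0 or the threshold were -0.11 to 0.33 (Asic2), -0.37 to 0.47 (Asic3) and -0.34 to 0.041 (Asic4) in CFA paw, -0.25 to 0.10 (Asic1) and -0.20 to 0.17 (Asic4) in CFA muscle, -0.26 to 0.22 (Asic3) and -0.052 to 0.32 (Asic4) in acid muscle, 0.49 to 0.79 (Asic1) and -0.34 to 0.11 (Asic4) for saline paw minus saline muscle, 0.31 to 0.55 (Asic2) pooled, and -0.093 to 0.27 (Asic1) and -0.091 to 0.37 (Asic4) for the difference of CFA effects.

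With the replicate block, 316, 1144 and 2601 genes were called after saline, after CFA and pooled, and the Asic3 differences were 2.46, 3.32 and 2.89. Same-numbered samples deviated together (r over 0.1) in 10 of 30 pairs, with r from -0.534 to 0.339. With 3 arrays per group this check cannot show whether the numbers pair the samples. The block changed no call of a member. Precision is limited by 3 arrays per group and, for list genes near or below the dim limit such as Scnn1g, by low signal. The members themselves lay above that limit on every array.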
